A study of Mus musculus with 12 samples.

Results

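The interferon-inducible GTPases described here are 10 genes chosen by name: the guanylate-binding proteins (GBPs) Gbp2, Gbp3, Gbp4, Gbp5, Gbp6 and Gbp7, and the immunity-related GTPases (IRGs) Igtp, Irgm1, Irgm2 and Iigp1. They were followed among 56923 counted mouse genes, of which 18529 had enough reads to test, all 10 GTPases among them. Bulk RNA of back skin was sequenced for 12 female mice in 4 groups of 3, all 8 to 10 weeks old. WT mice received either vehicle (the WT control group) or 5% imiquimod (IMQ) cream (the WT IMQ group) on the shaved back each day for 6 days, and mice labelled Lcn2-/- received the same 2 treatments (the KO-labelled control and KO-labelled IMQ groups). IMQ is a Toll-like receptor agonist whose cream produces psoriasis-like lesions on mouse skin. Per the study's methods the Lcn2-/- line was a purchased knockout on a C57BL/6 background, and WT littermates were the controls. In the repository labels the line's genotype reads knockdown, and the treatment field of control mice reads none. Replicates were separate mice, and mice with the same number in different groups were different animals.

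GBPs and IRGs are GTPases that cells make after interferon, above all IFN-γ. They assemble on the membranes of vacuoles that hold bacteria or parasites and help to break them open. The small group of IRGM proteins, which includes Irgm1, Irgm2 and Igtp (also called Irgm3), stays on the cell's own membranes and holds effector IRGs such as Iigp1 (also called Irga6) inactive there. Their promoters are known to carry GAS and ISRE elements, the latter bound by the factor IRF1.

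In the counts, the targeted gene had reads under both genotype labels. Lcn2, which encodes lipocalin-2, had 136, 201 and 86 counts in the WT control mice, 1010, 2723 and 1572 in WT IMQ, 320, 173 and 357 in the KO-labelled control and 561, 511 and 830 in the KO-labelled IMQ mice. Its log2 fold change between KO-labelled and WT mice was 0.87 (adjusted p = 0.794) in controls and -1.49 (adjusted p = 0.0525) after IMQ, by edgeR. With IMQ it rose by 4.03 in WT (adjusted p = 8.1e-05) and 1.67 in KO-labelled mice (adjusted p = 0.0121), by edgeR. The difference of these responses was -2.36 (adjusted p = 0.0552, edgeR). Reads on Lcn2 were thus present in every library labelled Lcn2-/-, and the label is used below only as a name. Whether a disrupted allele still gives these reads cannot be told from counts per gene. Library totals lay between 16448226 and 28592110 counts, where 3 counts correspond to 0.105 to 0.182 CPM by total. CPM values below are counts scaled to a common library size after TMM normalization. The extraction text in the labels speaks of retinas while the tissue is given as skin. Keratinocyte markers summed to between 6212 and 43778 CPM over the 12 libraries, and 10 retina markers to between 0.471 and 3.03 CPM, with 3 of the 10 at 0 in every library.

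Promoter sequences are printed because these genes are known to respond to interferon through short elements there. RefSeq (GRCm38.p6) gave a promoter of 250 bases before to 50 bases after a start site for 7 of the 10 genes; Gbp4, Gbp6 and Iigp1 had no entry. An ISRE core was searched as GAAA, any 2 bases and GAAA again, and a GAS core as TTCNNNGAA, each on both strands. The ISRE core was found in 7 of the 7, against 3.99% of 27025 genes with a promoter in the same table. The GAS core was found in 4 of the 7 (Gbp5, Gbp7, Igtp and Irgm2), against 9.55% of genes. The windows below end before the first exon of their own gene that they meet in GENCODE M21, and those of Gbp5 and Irgm2 lie in introns of longer transcripts of the same genes. Gbp5, Igtp and Irgm2 are shown because they fell after IMQ in the KO-labelled mice, and Gbp3 and Gbp7 because they carry the same core without passing that test. Capitals mark the matches to either core.
Gbp5 (chr3:142496684-142496899, + strand): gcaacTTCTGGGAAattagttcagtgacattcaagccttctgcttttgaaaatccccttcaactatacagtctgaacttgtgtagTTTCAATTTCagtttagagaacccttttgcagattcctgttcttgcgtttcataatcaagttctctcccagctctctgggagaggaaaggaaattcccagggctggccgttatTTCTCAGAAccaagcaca
Gbp7 (chr3:142530086-142530335, + strand): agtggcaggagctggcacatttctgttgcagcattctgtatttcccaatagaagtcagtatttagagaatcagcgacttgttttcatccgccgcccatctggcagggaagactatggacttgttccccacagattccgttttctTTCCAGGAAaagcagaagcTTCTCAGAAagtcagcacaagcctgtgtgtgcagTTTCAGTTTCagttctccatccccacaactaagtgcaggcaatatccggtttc
Gbp3 (chr3:142559794-142560025, + strand): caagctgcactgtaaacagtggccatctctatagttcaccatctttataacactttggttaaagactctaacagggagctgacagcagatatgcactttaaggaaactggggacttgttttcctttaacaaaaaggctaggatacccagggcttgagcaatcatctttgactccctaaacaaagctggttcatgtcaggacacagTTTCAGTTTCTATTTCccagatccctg
Igtp (chr11:58199306-58199555, + strand): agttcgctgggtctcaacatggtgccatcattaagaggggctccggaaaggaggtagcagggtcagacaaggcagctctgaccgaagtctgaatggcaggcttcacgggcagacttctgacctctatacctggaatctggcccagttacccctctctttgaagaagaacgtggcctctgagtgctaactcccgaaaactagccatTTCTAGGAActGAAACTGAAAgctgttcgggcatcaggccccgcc
Irgm2 (chr11:58214727-58214976, + strand): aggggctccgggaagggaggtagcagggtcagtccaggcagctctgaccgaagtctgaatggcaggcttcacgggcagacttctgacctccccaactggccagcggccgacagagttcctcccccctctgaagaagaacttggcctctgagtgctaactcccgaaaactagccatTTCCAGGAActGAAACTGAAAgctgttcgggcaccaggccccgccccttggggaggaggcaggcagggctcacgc

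In Igtp and Irgm2 the GAS match and the ISRE match stand side by side with the ISRE match starting 34 and 64 bases before the start site, and the 2 windows share an identical run of 55 bases elsewhere. In Gbp3, 2 ISRE matches overlap. In Gbp7 the ISRE match starts 53 bases, and in Gbp5 165 bases, before the start site. The matches of Gbp2 (TTTCACTTTC, starting 59 bases before the start site) and Irgm1 (GAAATAGAAA and GAAACCGAAA, starting 30 and 24 bases before it) lay within exons of the GENCODE M21 annotation and their windows are not printed. Among a list of 17 further genes of the families, 9 had a promoter, of which 5 held an ISRE core and 3 a GAS core. A match is a string of letters, and binding was not measured.

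The clearest change was a fall of the GTPases with IMQ in the KO-labelled mice. There 7 of the 10 genes were lower in the IMQ than in the control group, against 11.2% of all tested genes called lower by edgeR's quasi-likelihood test with a Benjamini-Hochberg adjusted p under 0.05 over all 18529 genes, the rule of every call below. All 4 IRGs fell, by 2.61-fold for Irgm1 to 4.90-fold for Iigp1, and 3 of 6 GBPs fell, Gbp4, Gbp5 and Gbp6, by 3.56-fold to 4.21-fold. The median log2 fold change of the 10 was -1.66, beside -0.05 for all genes. In WT mice 0 of the 10 were called, and the median was -0.44, beside -0.02 for all genes. In bulk skin, fewer cells that express a gene and less of its RNA per cell cannot be told apart.

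**Figure D1:**
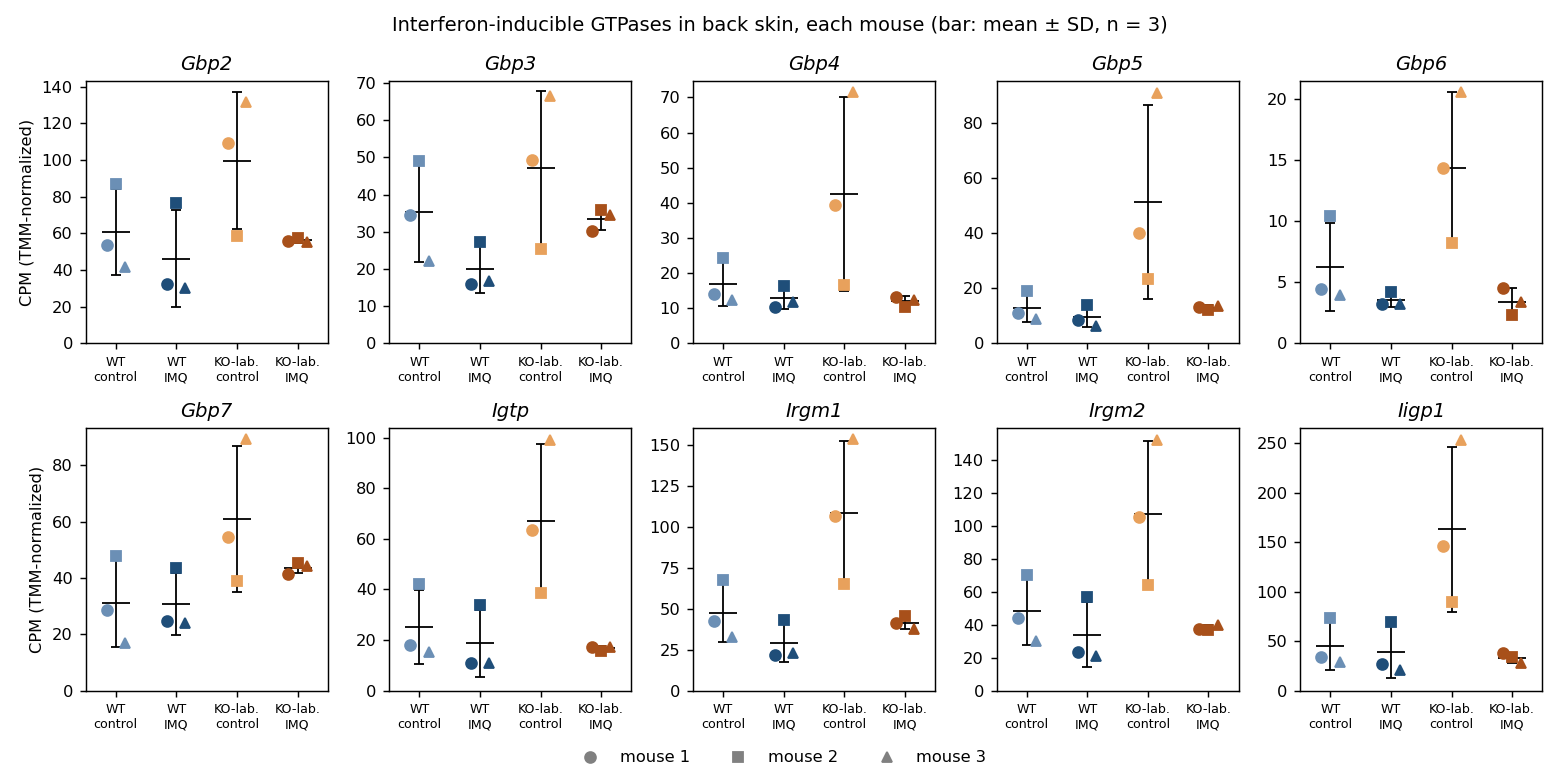
Level of each GTPase (CPM, TMM-normalized, linear axis from 0) in every mouse of the 4 groups, with the mean and SD of 3 mice as a bar. The KO-labelled control mice reach the highest level of all 12 mice for each of the 10 genes, and the KO-labelled IMQ mice lie close together.

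Iigp1 (ENSMUSG00000054072, chromosome 18 from 60376027 to 60392634, plus strand), the effector IRG of the set, had the largest fold change of the 10 in this comparison. Iigp1 had 34.2, 73.2 and 28.8 CPM in WT control mice 1, 2 and 3, 26.6, 68.9 and 21.3 CPM in WT IMQ, 147, 89.5 and 254 CPM in the KO-labelled control and 37.9, 34.3 and 27.8 CPM in the KO-labelled IMQ mice. All KO-labelled control mice were above all KO-labelled IMQ mice and above all WT mice, and WT control and WT IMQ overlapped. The log2 fold change with IMQ was -2.29 (adjusted p = 0.00811, SE 0.51) in the KO-labelled mice and -0.23 (adjusted p = 0.764, SE 0.49) in WT.

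The 3 IRGM genes, whose products restrain effector IRGs, moved alike. Igtp had 18.2, 42.2 and 15.3 CPM in WT control mice 1, 2 and 3, 11.03, 34.01 and 10.9 CPM in WT IMQ, 63.6, 38.8 and 99.2 CPM in the KO-labelled control and 17.2, 15.7 and 17.2 CPM in the KO-labelled IMQ mice. Irgm1 had 42.4, 67.8 and 32.6 CPM in WT control mice 1, 2 and 3, 21.7, 43.02 and 23.1 CPM in WT IMQ, 107, 65.01 and 154 CPM in the KO-labelled control and 41.3, 45.6 and 37.8 CPM in the KO-labelled IMQ mice. Irgm2 had 43.9, 70.2 and 29.9 CPM in WT control mice 1, 2 and 3, 23.6, 56.5 and 21.2 CPM in WT IMQ, 105, 63.9 and 152 CPM in the KO-labelled control and 37.4, 36.9 and 39.9 CPM in the KO-labelled IMQ mice. For each of the 3, all KO-labelled control mice were above all KO-labelled IMQ mice, while their lowest mouse, mouse 2, was below the highest WT control mouse. The log2 fold change with IMQ in the KO-labelled mice was -2.01 (adjusted p = 0.0156, SE 0.51) for Igtp (ENSMUSG00000078853, chromosome 11 from 58199556 to 58207591, plus strand), -1.38 (adjusted p = 0.0157, SE 0.35) for Irgm1 (ENSMUSG00000046879, chromosome 11 from 48861968 to 48871683, minus strand) and -1.49 (adjusted p = 0.0233, SE 0.42) for Irgm2 (ENSMUSG00000069874, chromosome 11 from 58199618 to 58222782, plus strand). In WT the same comparison gave -0.44 (adjusted p = 0.543, SE 0.50), -0.70 (adjusted p = 0.158, SE 0.35) and -0.51 (adjusted p = 0.383, SE 0.41), with overlapping groups for all 3. Igtp and Irgm2 share 162 exonic bases on the same strand, 8.01% of Igtp and 4.39% of Irgm2, and reads there could be given to either. The calls of the 3 depended on the mice: adjusted p rose above 0.05 for all 3 without KO-labelled control mouse 3, KO-labelled IMQ mouse 1 or KO-labelled IMQ mouse 3, with log2 fold changes then between -2.03 and -1.05, and for Igtp and Irgm2 also without KO-labelled IMQ mouse 2 (-1.97 and -1.47).

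Among the GBPs, Gbp4, Gbp5 and Gbp6 fell with IMQ in the KO-labelled mice. Gbp5 (ENSMUSG00000105504, chromosome 3 from 142493978 to 142522344, plus strand) is known as a promoter of NLRP3 inflammasome assembly. Gbp5 had 10.95, 19.1 and 8.99 CPM in WT control mice 1, 2 and 3, 8.60, 13.9 and 6.49 CPM in WT IMQ, 40.04, 23.5 and 91.05 CPM in the KO-labelled control and 13.1, 12.04 and 13.7 CPM in the KO-labelled IMQ mice. Every KO-labelled control mouse was above every other mouse. Its log2 fold change was -1.99 (adjusted p = 0.00994, SE 0.46) in the KO-labelled mice and -0.44 (adjusted p = 0.507, SE 0.46) in WT. Gbp4 had 14.1, 24.4 and 12.5 CPM in WT control mice 1, 2 and 3, 10.4, 16.5 and 11.9 CPM in WT IMQ, 39.3, 16.7 and 71.6 CPM in the KO-labelled control and 13.2, 10.2 and 12.4 CPM in the KO-labelled IMQ mice. For Gbp4 (ENSMUSG00000079363, chromosome 5 from 105115767 to 105139586, minus strand) the KO-labelled control and IMQ groups did not overlap, while KO-labelled control mouse 2 lay among the WT mice. Its log2 fold change was -1.83 (adjusted p = 0.0116, SE 0.44) in the KO-labelled mice and -0.40 (adjusted p = 0.517, SE 0.43) in WT. Gbp6 had 4.44, 10.4 and 3.93 CPM in WT control mice 1, 2 and 3, 3.21, 4.23 and 3.25 CPM in WT IMQ, 14.4, 8.26 and 20.6 CPM in the KO-labelled control and 4.58, 2.34 and 3.36 CPM in the KO-labelled IMQ mice. Gbp6 (ENSMUSG00000104713, chromosome 5 from 105270702 to 105293698, minus strand) was the least abundant of the 10, and all KO-labelled control mice were above all KO-labelled IMQ mice. Its log2 fold change was -2.07 (adjusted p = 0.00557, SE 0.43) in the KO-labelled mice and -0.82 (adjusted p = 0.172, SE 0.42) in WT. Reads of Gbp6 are uncertain, since 29.0% of its exonic bases are shared with Gm43302 on the same strand. Gbp4, Gbp5, Gbp6 and Iigp1 were called in this comparison in every one of the 14 other fits tried.

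Gbp2, Gbp3 and Gbp7 were not called in any comparison of the fit over 12 mice. Gbp2 (ENSMUSG00000028270, chromosome 3 from 142620602 to 142638008, plus strand) is known for coating parasite vacuoles. Gbp2 had 53.5, 86.7 and 41.8 CPM in WT control mice 1, 2 and 3, 32.3, 76.6 and 30.03 CPM in WT IMQ, 109, 58.3 and 132 CPM in the KO-labelled control and 55.6, 57.5 and 55.3 CPM in the KO-labelled IMQ mice. The KO-labelled groups did not overlap, control mouse 2 lying just above the highest IMQ mouse, with a log2 fold change of -0.83 (adjusted p = 0.139, SE 0.39). Gbp3 had 34.5, 49.00 and 22.2 CPM in WT control mice 1, 2 and 3, 15.9, 27.3 and 16.9 CPM in WT IMQ, 49.3, 25.4 and 66.7 CPM in the KO-labelled control and 30.2, 35.95 and 34.4 CPM in the KO-labelled IMQ mice. For Gbp3 (ENSMUSG00000028268, chromosome 3 from 142560026 to 142573209, plus strand) the lowest KO-labelled control mouse, mouse 2, was below all KO-labelled IMQ mice, and the log2 fold change was -0.49 (adjusted p = 0.326, SE 0.35). Gbp7 had 28.5, 47.8 and 16.9 CPM in WT control mice 1, 2 and 3, 24.8, 43.6 and 24.1 CPM in WT IMQ, 54.4, 39.1 and 89.5 CPM in the KO-labelled control and 41.5, 45.1 and 44.3 CPM in the KO-labelled IMQ mice. Gbp7 (ENSMUSG00000040253, chromosome 3 from 142530342 to 142550149, plus strand) likewise overlapped, with a log2 fold change of -0.48 (adjusted p = 0.370, SE 0.38), and 11.3% of its exonic bases are shared with the pseudogene Gm43802. In all, 8 of the 10 GTPases had KO-labelled IMQ mice below all KO-labelled controls, against 22.8% of tested genes. Gbp2, Gbp3, Gbp5 and Gbp7 are neighbours on chromosome 3, and of these only Gbp5 was called.

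**Figure D2:**
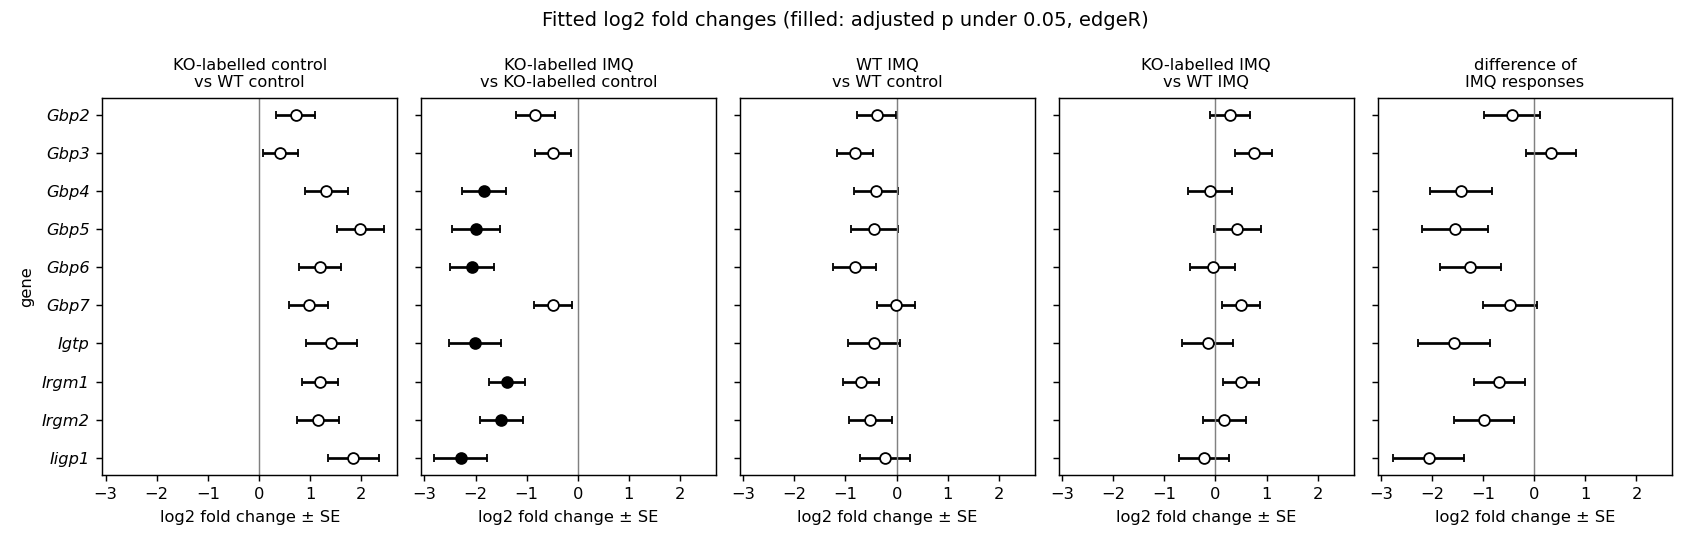
Fitted log2 fold change of each GTPase with its SE in the 5 comparisons, the last being the IMQ response in KO-labelled mice minus that in WT. Filled points have an adjusted p under 0.05 (edgeR). They occur only in KO-labelled IMQ against KO-labelled control, for 7 of the 10 genes.

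In WT skin, IMQ gave no call among the GTPases. By edgeR's quasi-likelihood test 0 of the 10 were called, against 28.5% of all tested genes in either direction, and DESeq2 also called 0. All 10 log2 fold changes were below 0, from -0.82 for Gbp3 to -0.01 for Gbp7, and 1, that of Gbp3, had an unadjusted p under 0.05 (adjusted p = 0.106, edgeR). The groups overlapped for all 10, against 20.6% of tested genes with IMQ mice below all controls. WT IMQ mouse 2 had the highest level of its group for 10 of 10 genes, and without it Irgm1 was called (log2 fold change -1.09, adjusted p = 0.0462 by edgeR). The direction for Gbp7, Igtp and Iigp1 turned without WT control mouse 2, to 0.44, 0.15 and 0.30. For Gbp7 it also turned under DESeq2 and under counts thinned to the smallest library (0.0020 and 0.0046).

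Between the control groups, all 10 GTPases had a higher mean in the KO-labelled than in the WT mice, but 0 of the 10 were called by edgeR, as were 0.0108% of all tested genes. The log2 fold changes ran from 0.42 for Gbp3 to 1.98 for Gbp5, with a median of 1.19 beside 0.00 for all genes. An unadjusted p under 0.05 was found for 8 of the 10. Gbp5 was at 13.02 ± 5.38 CPM (SD, n = 3) in WT and 51.5 ± 35.2 CPM (SD, n = 3) in KO-labelled controls. The log2 fold change of Gbp5 was 1.98 (adjusted p = 0.312, SE 0.46). Iigp1 was at 45.4 ± 24.3 CPM (SD, n = 3) in WT and 163 ± 83.3 CPM (SD, n = 3) in KO-labelled controls. The log2 fold change of Iigp1 was 1.84 (adjusted p = 0.479, SE 0.50). In these 2 genes the groups did not overlap, against 4.19% of tested genes with KO-labelled control mice above all WT controls. DESeq2 called both (adjusted p = 0.00276 and 0.019), and with any 1 of these 6 mice left out edgeR called none of the 10.

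After IMQ the SEs of KO-labelled against WT mice ran from 0.35 (Irgm1) to 0.50 (Igtp) in log2 units. A lack of calls here therefore does not show equal levels. Of the 10 GTPases 0 were called between KO-labelled IMQ and WT IMQ mice by edgeR, against 4.78% of all tested genes, 0 had an unadjusted p under 0.05, and DESeq2 called 0. The log2 fold changes were above 0 for 6 genes and below 0 for 4, from -0.22 for Iigp1 to 0.75 for Gbp3. Gbp3 was 20.01 ± 6.33 CPM (SD, n = 3) in WT IMQ and 33.5 ± 2.97 CPM (SD, n = 3) in KO-labelled IMQ mice, and was the 1 gene whose groups did not overlap, against 16% of tested genes with KO-labelled mice above (log2 fold change 0.75 (adjusted p = 0.201, SE 0.36)). Fitted on these 6 mice alone, Gbp3 had an adjusted p of 0.0499 by edgeR. For Gbp4, Gbp6, Igtp and Iigp1 the direction turned from lower to higher without WT IMQ mouse 2.

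The difference of the IMQ responses, KO-labelled minus WT, was not called for any of the 10 GTPases by edgeR, against 2.15% of all tested genes. It was below 0 for 9 genes and above 0 for Gbp3 (0.33 (SE 0.50)), and 4 had an unadjusted p under 0.05. These were Iigp1 at -2.07 (adjusted p = 0.114, SE 0.70), Igtp at -1.57 (adjusted p = 0.202, SE 0.71), Gbp5 at -1.55 (adjusted p = 0.171, SE 0.64) and Gbp4 at -1.43 (adjusted p = 0.181, SE 0.61). DESeq2 called 1, Iigp1 (-2.08, adjusted p = 0.0267). A call in the KO-labelled mice and none in WT therefore does not show that the responses differed. The comparisons share mice: the KO-labelled controls stand in the fall with IMQ, in the comparison of the control groups and in this difference.

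Within groups, the GTPases rose and fell together from mouse to mouse. WT control mouse 2 had the highest level of its group for 10 of 10 genes and mouse 3 the lowest for 10 of 10, WT IMQ mouse 2 the highest for 10 of 10, and in the KO-labelled control group mouse 3 was highest and mouse 2 lowest for 10 of 10. The summed level of the 10 genes was 285, 491 and 213 CPM in WT control mice 1, 2 and 3, 178, 385 and 169 CPM in WT IMQ, 729, 429 and 1129 CPM in the KO-labelled control and 292, 296 and 286 CPM in the KO-labelled IMQ mice. The KO-labelled IMQ mice were the exception, with a median coefficient of variation of 7.72% over the 10 genes beside 40.2% to 43.4% in the other groups. Over the 12 mice the 45 pairs of members had Pearson correlations of log2 CPM from 0.663 to 0.986 (median 0.909), and for deviations from the group means from 0.755 to 0.987 (median 0.916). The points of such a correlation share a library and its normalization.

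**Figure D3:**
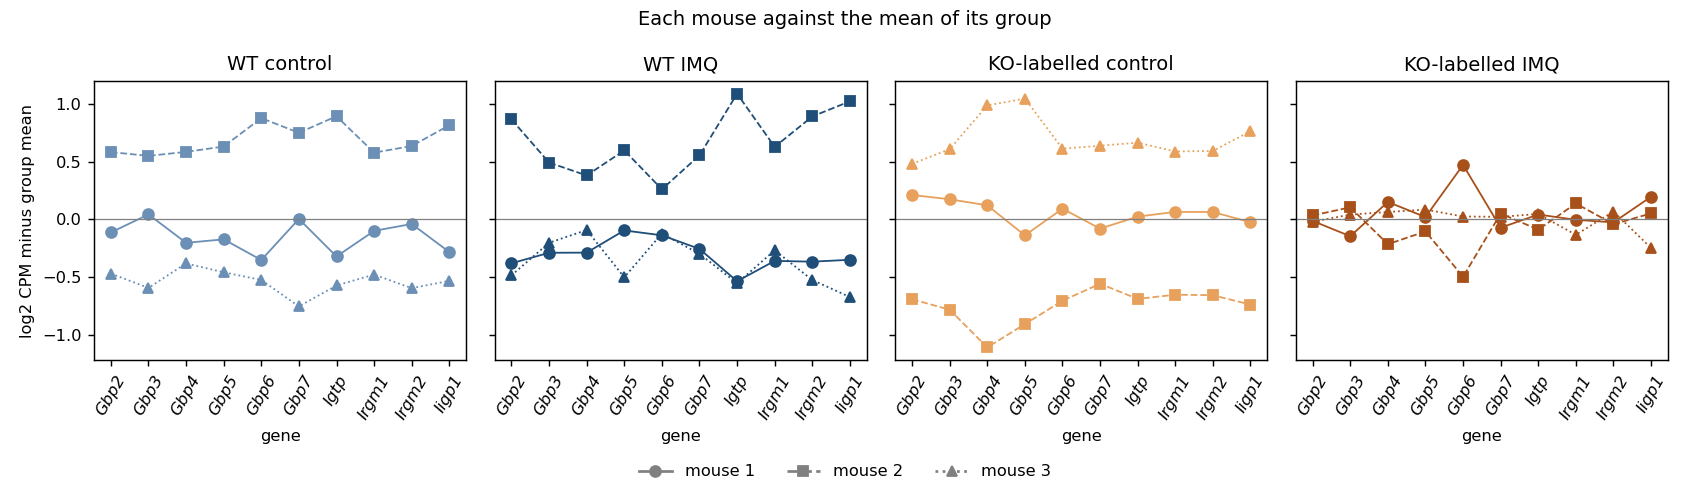
log2 CPM of each GTPase minus the mean of its group, 1 line for each of the 3 mice of a group. The lines of mice 2 and 3 stay on one side of the group mean across all genes in the WT control, WT IMQ and KO-labelled control groups. The lines of the KO-labelled IMQ group cross. They lie furthest from 0 for Gbp6 (0.47 in mouse 1 and -0.50 in mouse 2), then for Iigp1 (0.20 in mouse 1 and -0.25 in mouse 3).

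The mice also differed in markers of other structures. Hair follicle markers (9 genes) summed to 2114, 21.02 and 1181 CPM in WT control mice 1, 2 and 3 and to 149.5, 6203 and 2331 CPM in the KO-labelled controls. In each control group, the mouse with most GTPase was not the one with most follicle RNA: WT control mouse 2 had the least and KO-labelled control mouse 2, lowest for the GTPases, the most. Macrophage and dendritic cell markers (14 genes) summed to 3265, 5486 and 1543 CPM in WT control, 3434, 5826 and 3469 CPM in WT IMQ, 2586, 1243 and 1620.3 CPM in KO-labelled control and 5347, 7008 and 7636 CPM in KO-labelled IMQ mice. WT mouse 2 was highest for these markers in both WT groups, as for the GTPases, while among KO-labelled controls mouse 1 was highest. Where the GTPases fell, in KO-labelled IMQ against control mice, macrophage and dendritic cell markers were called higher for 10 of 14 and lower for 2 (Cd207 -2.53 and Xcr1 -3.41, markers of Langerhans cells and of a dendritic cell subset). Keratinocyte markers were called higher for 8 of 12 and lower for 1, with sums of 6573 to 8669.5 CPM in control and 19265 to 30634 CPM in IMQ mice. Fibroblast markers were called higher for 4 of 10 and lower for 0, with sums of 11220.2 to 12597 and 20636 to 21547 CPM. Neutrophil markers were called higher for 10 of 10 and endothelial markers for 10 of 12, against 14.1% of all tested genes. Hair follicle markers were called lower for 9 of 9, skeletal muscle markers for 4 of 10 (and higher for 1) and adipocyte markers for 2 of 8, against 11.2% of all tested genes. T and NK cell markers, an IFN-γ source, were called higher for 1 of 14 (Cd4) and lower for 0. Their log2 fold changes were below 0 for 9 and above 0 for 5, with a median of -0.71. Their sums were 234 to 365 CPM in control and 271 to 317 CPM in IMQ mice, mostly from Thy1, which is also on the fibroblast list. Thy1 averaged 213 and 220 CPM, where the sums averaged 292 and 298 CPM. Sums in the same groups were 53.5 to 93.5 and 3850.5 to 10576 CPM for neutrophil, 414 to 719.7 and 1429 to 1464 CPM for endothelial and 149.5 to 6203 and 3.96 to 14.1 CPM for hair follicle markers. The neutrophil sum in IMQ mice largely followed S100a8 and S100a9, which averaged 3044 and 4226 CPM of a mean of 7635.5 CPM. Over the 10 neutrophil markers the log2 fold changes ran from 1.88 to 8.03, with a median of 3.81. The part of these cells in the GTPase values was not tested.

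Per kilobase of exon, Gbp2 was the most and Gbp6 the least abundant GTPase in every group, with mean levels of 24.1 ± 9.26 and 1.05 ± 0.604 CPM per kb (SD, n = 3) in WT control mice. In that group the order from the top was Gbp2, Irgm2, Igtp, Gbp3, Irgm1, Iigp1, Gbp7, Gbp4, Gbp5 and Gbp6, and the ranges of all neighbours in it overlapped. Iigp1 ranked 6 by mean there (7.80 ± 4.17 CPM per kb) and 4 in the KO-labelled controls (28.0 ± 14.3 CPM per kb), where neighbours again overlapped. In the KO-labelled IMQ mice, with their small spread, the levels of Gbp2 (22.3 ± 0.458 CPM per kb) and Irgm2 (10.3 ± 0.429) did not overlap, nor did those of Gbp4 (1.59 ± 0.205) and Gbp6 (0.575 ± 0.188).

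A list of 17 further genes of the GBP and IRG families was tested in full. In KO-labelled IMQ against control mice the log2 fold change was below 0 for 11 and above 0 for 6, and 4 fell, against 11.2% of all tested genes, with 0 called higher: Tgtp1 -2.62 (adjusted p = 0.0223, SE 0.73), Tgtp2 -2.11 (adjusted p = 0.0148, SE 0.53), Gm4951 -1.95 (adjusted p = 0.0201, SE 0.53) and Ifi47 -1.42 (adjusted p = 0.0309, SE 0.42), by edgeR. Tgtp1 and Tgtp2 encode near-identical GTPases and their reads could be split between them. In WT, 2 of the 17 fell with IMQ, against 14.3% of all tested genes, Gbp2b -3.31 (adjusted p = 0.0105, SE 0.81) and Gm5431 -1.54 (adjusted p = 0.0492, SE 0.53). In the control groups, after IMQ and in the difference of the responses 0 of the 17 were called by edgeR, with 5, 3 and 4 at an unadjusted p under 0.05. The median log2 fold change of the 17 was -0.50 in KO-labelled and -0.68 in WT mice with IMQ, and 0.60 between the control groups.

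Of IFN-γ signalling (7 genes, 6 tested), the ligand Ifng was not tested for want of reads, with 2, 1 and 2 counts in the WT control, 0, 2 and 3 in the WT IMQ, 3, 1 and 10 in the KO-labelled control and 0, 0 and 0 in the KO-labelled IMQ mice. KO-labelled control mouse 3, the mouse with the highest GTPase levels, had the most. In KO-labelled mice with IMQ the receptor chains Ifngr1 (0.78 (adjusted p = 0.0436, SE 0.25)) and Ifngr2 (0.41 (SE 0.12)) and the kinase Jak1 (0.65 (SE 0.18)) rose, while the factor Irf1 (-0.96 (adjusted p = 0.0366, SE 0.30)) fell, by edgeR. Of all tested genes 14.1% were called higher and 11.2% lower there. Irf1 had 63.9, 37.6 and 83.9 CPM in the KO-labelled controls and 31.6, 30.99 and 32.8 CPM in the KO-labelled IMQ mice, and in the controls it followed the GTPases, with mouse 3 highest and mouse 2 lowest. In WT mice with IMQ, Jak2 rose (0.49 (adjusted p = 0.0302, SE 0.15)) and the other 5 were not called, where 14.2% of all tested genes were called higher. Between the control groups 0 of 6 were called by edgeR and 1 had an unadjusted p under 0.05, Irf1 at 0.89 (adjusted p = 0.639, SE 0.30).

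Of 12 tested genes on a list of other IFN-γ targets, 4 fell and 2 rose with IMQ in KO-labelled mice, where 11.2% and 14.1% of all tested genes were called lower and higher. Cxcl10, a chemokine for T cells, had 3.65, 4.64 and 5.58 CPM in WT control, 2.36, 3.63 and 1.70 CPM in WT IMQ, 99.7, 46.9 and 171 CPM in KO-labelled control and 3.91, 4.79 and 1.74 CPM in KO-labelled IMQ mice. It stood apart in the KO-labelled controls, each of which was above all other mice. It was called between the control groups (4.52 (adjusted p = 0.0132, SE 0.50)), in the fall with IMQ (-4.93 (adjusted p = 0.000114, SE 0.51)) and in the difference of the responses (-4.06 (adjusted p = 0.0247, SE 0.69)), by edgeR. The call of Cxcl10 between the control groups depended on the fit. With the compared mice only, or with the replicate block, no gene at all was called there. Cd274, Tap1 and Nlrc5, which act in checkpoint signalling and antigen presentation, also fell in KO-labelled mice (-1.41, -0.77 and -0.73), while Irf8 and Nos2 rose (1.07 and 1.70). In WT, Ciita and Tap1 fell (-1.78 and -1.02) and Nos2 rose (1.99), where 14.3% and 14.2% of all tested genes were called lower and higher. Ciita, the regulator of MHC class II genes, was also higher in KO-labelled than in WT IMQ mice (1.13 (adjusted p = 0.0349, SE 0.25)) and above 0 in the difference of the responses (1.58 (adjusted p = 0.0431, SE 0.34)).

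Of 20 type I interferon-stimulated genes, 13 fell with IMQ in WT mice, against 14.3% of all tested genes called lower there, and 13 in KO-labelled mice, against 11.2%. The median log2 fold changes of the 20 were -1.69 and -1.63. In WT mice with IMQ, T and NK cell markers were also called lower for 8 of 14, fibroblast markers for 5 of 10 and hair follicle markers for 5 of 9. The T and NK sums were 290.4 to 454 CPM in control and 153 to 236 CPM in IMQ mice. Thy1, also on the fibroblast list, averaged 258 and 139 CPM of them. Skeletal muscle markers were called lower for 6 of 10 (and higher for 1) and adipocyte markers for 2 of 8. Keratinocyte markers were called higher for 10 of 12 (and lower for 1), neutrophil markers for 8 of 10 and endothelial markers for 5 of 12, against 14.2% of all tested genes. Macrophage and dendritic cell markers were called higher for 3 of 14 and lower for 3. The part of these cells in the values was not tested. In KO-labelled mice the largest of these falls were those of Ifit1 (-4.06), Mx2 (-3.98), Mx1 (-3.74), Ifit3 (-3.07), Cmpk2 (-2.97) and Rsad2 (-2.71), of which Mx1 and Mx2 are antiviral GTPases of the dynamin family. In WT they were those of Ifi44 (-2.42), Oas3 (-2.35), Rtp4 (-2.11), Ifit3 (-2.08), Oasl1 (-2.04) and Zbp1 (-2.02). Mx1 was the 1 gene of the 20 called in the difference of the responses (-2.94 (adjusted p = 0.0498, SE 0.68), edgeR). Of 8 tested genes of type I signalling, Stat2, Irf9 and Usp18 fell (-1.27, -1.004 and -2.69) and the receptor chains Ifnar1 and Ifnar2 rose (0.75 and 1.19) in KO-labelled mice. Of all tested genes 11.2% were called lower and 14.1% higher there. In WT, Irf7 and Usp18 fell (-2.04 and -2.39), against 14.3% of all tested genes called lower. Between the control groups 0 of the 20 were called by edgeR, with 12 at an unadjusted p under 0.05 and a median of 0.96. The difference between the lists within WT was not tested.

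**Figure D4:**
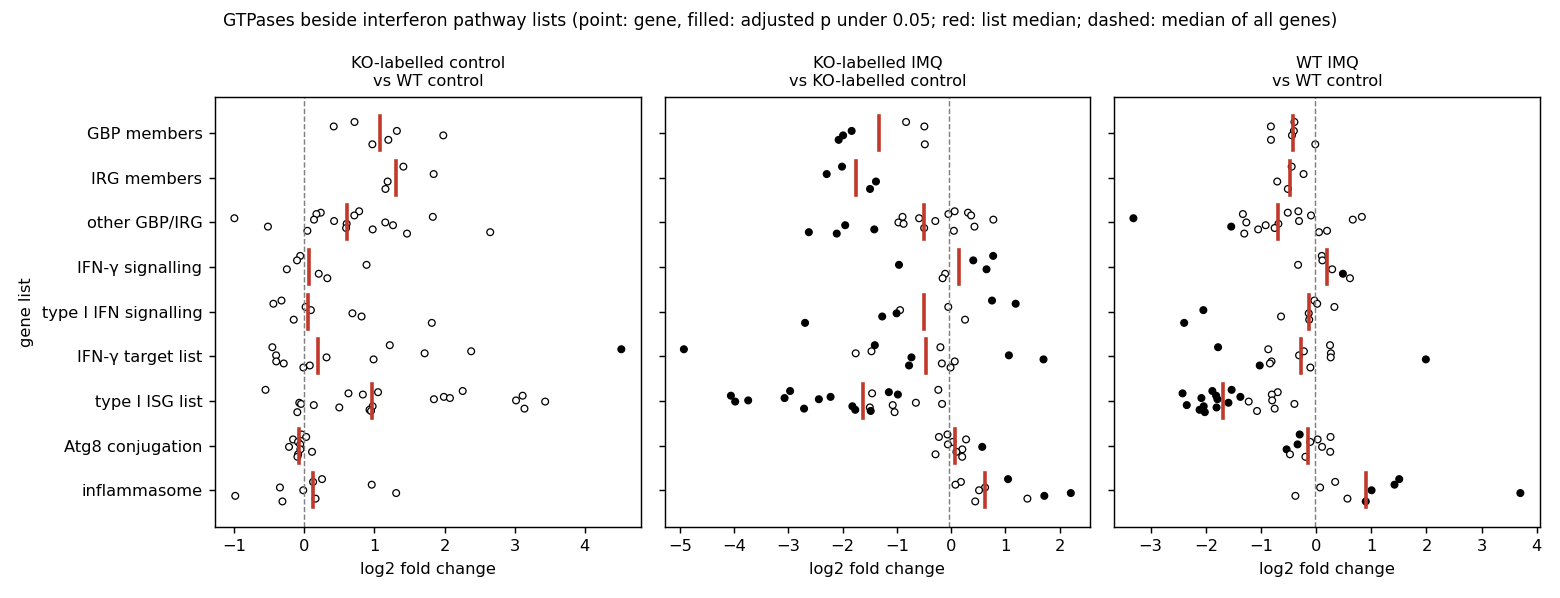
log2 fold change of each gene of the GTPase and interferon lists in 3 comparisons, filled where the adjusted p is under 0.05 (edgeR), with the list median in red and the median of all tested genes dashed. The type I list has 13 filled points in each IMQ comparison, while the GBP and IRG members are filled only in the KO-labelled mice.

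Genes whose products act with these GTPases were read on 2 lists. Of 10 genes of Atg8 conjugation, the machinery that guides GBPs and IRGs to vacuoles, 1 was called higher in KO-labelled mice with IMQ, against 14.1% of all tested genes. In WT 3 were called lower and 0 higher, where 14.3% of all tested genes were called lower and 28.5% in either direction. Gabarap rose with IMQ in KO-labelled mice (0.57 (adjusted p = 0.00423, SE 0.11)), and Gabarapl1, Atg7 and Atg12 fell in WT (-0.53, -0.34 and -0.30), by edgeR. Of 9 inflammasome genes, which GBPs help to activate, Il1b, Ninj1 and Aim2 rose in KO-labelled mice (2.21, 1.72 and 1.05) and Il1b, Aim2, Casp4, Il18 and Pycard rose in WT (3.70, 1.51, 1.42, 1.01 and 0.90). These 3 and 5 of 9 stand against 14.1% and 14.2% of all tested genes called higher. The inflammasome list had no gene called lower in either comparison of IMQ with control mice. Between the IMQ groups, Gabarapl1 was higher (0.69) and Pycard lower (-0.77) in KO-labelled mice, and Ninj1 was called in the difference of the responses (2.09).

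The tested genes outside the 10 whose log2 CPM was most like the mean standardized level of the GTPases over the 12 mice were Gm12250 (Pearson r = 0.980), Irf1 (0.979), Tnfsf10 (0.972), Ifi47 (0.970) and Tlr3 (0.967). Gm12250, which RefSeq also names Irgb10, is itself an IRG that was not on the list of 17. Their Spearman correlations were 0.979, 0.958, 0.965, 0.909 and 0.958. With group means removed the Pearson correlations were 0.960, 0.946, 0.938, 0.962 and 0.912. These are descriptions over 12 libraries that share their normalization, picked as the highest of all tested genes.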

How the data were processed

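Back skin of 12 mice (4 groups of 3, as labelled) was profiled by bulk RNA-seq with paired reads. The authors deposited raw read counts for 56923 Ensembl genes per library, and the submitters' processing notes name HISAT and mm8 without versions; the annotation and the treatment of multi-mapping reads are not given in the sources used here. Symbols and positions came from GENCODE M21 (GRCm38), which held 52073 of the identifiers (91.5%), so coordinates are of that build and not of the deposited counts.

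Totals lay between 16448226 and 28592110 counts. Floors of 3 counts cover counting error only, while SEs cover the spread between mice. That spread was estimated for each gene over the 4 groups together. The KO-labelled IMQ mice varied less in the GTPases (median coefficient of variation 7.72%, beside 40.2% to 43.4%). The SEs of comparisons with that group therefore do not show its own spread. No 2 libraries of the same group agreed within sampling noise, and pairs across groups were not compared. Counts were normalized by TMM and fitted with edgeR 4.0.16 (R 4.3.3) as a quasi-likelihood model of 4 group means with robust spread (common biological coefficient of variation 0.253) over the 18529 genes passing filterByExpr (minimum count 10, minimum total 15). The study's methods name DESeq2, which served as an alternative (version 1.42.0). On simulated counts for 18097 genes, with 200 changed 4-fold in WT IMQ against WT control, edgeR recovered 183 (91.5%) with 9 false calls among 192, and DESeq2 recovered 194 with 35 false among 229. The changed genes were drawn from the better expressed ones. Smaller changes, rarer genes and changes in the other groups were not simulated, so these rates do not extend to them.

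The members, the gene lists and the markers were chosen with earlier results of these data known. All 10 members and Lcn2 are named. Other lists are given by counts, naming called genes (at most 6 a list), or Ifng, Irf1 and Irf9 where none was called, and the 5 non-members most correlated with the members. A gene of the IFN-γ signalling list is not reported here. Cd207, Xcr1, Cd4, Thy1, S100a8 and S100a9 were picked after their values were seen. Alternatives were RLE size factors, DESeq2, no filter, at least 10 counts in every library, the compared mice only, the replicate number as a block, thinned counts, a fold above 2, and each mouse left out. Scaling by library totals was added after seeing the data. The SE of an edgeR log2 fold change is its size divided by the square root of the quasi-likelihood F statistic. Figures were drawn with matplotlib 3.10.9. The labels tie replicate numbers to no litter or batch, and the replicate block was run only as an alternative.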

Additional observations from a re-analysis of the deposited data

How the results depend on the processing

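In KO-labelled IMQ against control mice, 7 GTPases were called, and 4 without a filter on low counts, where Igtp, Irgm1 and Irgm2 had adjusted p of 0.0704, 0.0621 and 0.0931 by edgeR. With the compared mice only 8 were called, Gbp2 being added (adjusted p = 0.0471 by edgeR; 0.0546 to 0.373 in its other fits). With each mouse left out in turn the number lay between 4 and 7, with 4 without KO-labelled IMQ mouse 1, KO-labelled IMQ mouse 3 or KO-labelled control mouse 3. All 10 kept their direction in every alternative of this comparison. In WT IMQ against WT control mice, 0 were called, 1 with scaling by library totals (Gbp3, -0.99, an alternative chosen after seeing the data), and between 0 and 1 with each mouse left out. In KO-labelled IMQ against WT IMQ, 0 were called and 1 with the compared mice only, and 0 to 0 with a mouse left out. Between the control groups 0 were called and 2 by DESeq2, and for the difference of the responses 0 and 1 by DESeq2.

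Directions that turned belonged to values that were not called. In WT mice with IMQ, Gbp7 was 0.0020 by DESeq2 and 0.0046 in thinned counts, and with each mouse left out it lay between -0.35 and 0.44 (0.12, 0.14 and 0.44 without WT IMQ mouse 1, WT IMQ mouse 3 and WT control mouse 2). Igtp lay between -1.21 and 0.15 (above 0 without WT control mouse 2) and Iigp1 between -0.93 and 0.30 (0.07 without WT IMQ mouse 3, 0.30 without WT control mouse 2). In KO-labelled against WT IMQ mice, the same ranges were -0.24 to 0.11 for Gbp4, -0.32 to 0.16 for Gbp6 (0.09 without WT IMQ mouse 2, 0.16 without KO-labelled IMQ mouse 2), -0.43 to 0.61 for Igtp, -0.52 to 0.48 for Iigp1 and -0.074 to 0.77 for Irgm2 (-0.03 without WT IMQ mouse 1 and -0.074 without WT IMQ mouse 3). The highest values of Gbp4, Igtp and Iigp1 came without WT IMQ mouse 2. The difference of the responses of Gbp2 lay between -0.79 and 0.14, the latter without WT IMQ mouse 2. The cause was not tested.

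Counts over all genes moved more. In KO-labelled against WT IMQ mice they went from 886 to 2659 by DESeq2, 1894 with the compared mice only, 136 with the replicate block, and 0 to 2726 with a mouse left out. Between the control groups they went from 2 to 115 by DESeq2, 6 without a filter, 3 by library totals and 0 with the compared mice only or the replicate block, and 0 to 32 with a mouse left out. For the difference of the responses they went from 398 to 2060 by DESeq2 and 10 with the replicate block, and 2 to 1927 with a mouse left out. In WT, 5287 became 3289 without WT IMQ mouse 1, and in KO-labelled mice 4691 became 2747 without IMQ mouse 3 and 2981 without control mouse 3.

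Same-numbered mice were not treated as paired, since the labels tie replicate numbers to no litter or batch. Over 18 pairs their deviations from the group means correlated at -0.051 on average (range -0.555 to 0.199). These values do not settle whether such mice shared a litter or batch. With the replicate block 7 GTPases were called in KO-labelled IMQ against control mice and 0 in the other comparisons. Scaling by library totals moved the median of all genes to -0.247 in KO-labelled and -0.193 in WT mice with IMQ. Paralogous GTPases whose reads can be shared limit the precision of each gene.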
